A study of Mus musculus with 17 samples.

Results

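The circadian clock genes Per1, Per2, Per3, Cry1, Cry2, Arntl, Clock, Npas2, Nr1d1 and Dbp were examined for chromatin accessibility in neuronal nuclei of the mouse nucleus accumbens. Members were all regions with called peaks that overlapped the GENCODE body of one of these 10 genes on the mm10 genome, extended by 10 kb on each side. Of 147420 regions kept over the 17 libraries of the series, 114 met this rule, and no region fell to more than 1 of the genes. The assay was ATAC-seq, in which a transposase cuts and tags open chromatin, on NeuN+ nuclei sorted from frozen bilateral nucleus accumbens of C57BL/6 mice (C57BL/6J in the study's methods) aged 52 to 54 days. Females in diestrus (low estradiol), females in proestrus (high estradiol) and males received 10 mg/kg cocaine by intraperitoneal injection and were killed 1 h later, or were left untreated as controls at 0 h. Each library pooled 3 animals, and each of the 6 groups held 3 libraries, except for males given cocaine, of which there were 2. The controls were not injected, so cocaine cannot be told apart from the injection and the extra hour in any comparison below, and the hour of the day at which tissue was taken is not given in the sources used here. A difference in accessibility per nucleus and a difference in the share of nuclei that carry an open site cannot be told apart in these pooled samples.

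The clock is a transcriptional feedback loop with a period of about a day. CLOCK, or its paralog NPAS2, pairs with BMAL1, the product of Arntl, and binds E-boxes to activate the Per and Cry genes, Nr1d1 and Dbp. PER and CRY proteins return to the nucleus and inhibit that activator, NR1D1 (REV-ERB alpha) represses Arntl through ROR response elements, and DBP activates genes with D-boxes. Npas2 is abundant in the forebrain, including the striatum, where it can take the place of CLOCK. Per1 is also induced by neuronal activity through cyclic AMP signaling.

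The question the samples address is whether acute cocaine changes neuronal accessibility, and whether it does so alike in males and in females of either stage. Accessibility was read as the fold enrichment of each peak, that is, the reads piled up at its summit relative to the background of its library. The 17 libraries held 75458 to 157005 peaks each, and the smallest called summits rested on 15 to 20 reads. The male cocaine libraries called 42.0% and 36.6% of all kept regions, against 45.6% to 70.7% in the other 15 libraries. The sort was checked at the promoters of marker genes. Of 7 neuronal markers, 6 had a peak summit within 1 kb of the 5' end in all 17 libraries and Rbfox3, which encodes NeuN, had one in 12. Of 11 markers of astrocytes, oligodendrocytes, microglia and endothelium, none had one in all libraries, 6 had none in any library, and Gfap had one in 16 at a median fold enrichment of 3.48.

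The sequences below are 201 bases of the mm10 genome (GRCm38.p6, RefSeq), centered on the strongest summit of 8 clock gene regions and written 5' to 3' in the direction of the gene. They were chosen because the regions over the 5' ends of Per1, Per3, Dbp and Clock and the intronic region of Npas2 carry the differences in summit height described below, because the last Clock and Nr1d1 regions carry differences in calls, and because Per2 shares a motif with Per3. Capitals mark matches, on either strand, to the E-box CACGTG, the D-box TTATGTAA or TTACGTAA, and the ROR element core TAGGTCA or TGGGTCA. The cyclic AMP response element TGACGTCA and the AP-1 site TGACTCA were searched too and did not occur in these 8 sequences. No motif of the list contains another.
Per1, upstream: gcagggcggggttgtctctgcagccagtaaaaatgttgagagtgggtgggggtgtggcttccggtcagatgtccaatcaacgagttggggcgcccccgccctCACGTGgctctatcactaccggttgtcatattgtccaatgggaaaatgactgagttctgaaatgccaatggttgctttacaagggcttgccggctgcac
Per2, upstream: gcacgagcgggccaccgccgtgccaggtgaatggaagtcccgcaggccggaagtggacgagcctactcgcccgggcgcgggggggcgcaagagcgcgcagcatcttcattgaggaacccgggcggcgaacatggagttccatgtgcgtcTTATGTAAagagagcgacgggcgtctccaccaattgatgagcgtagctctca
Per3, upstream: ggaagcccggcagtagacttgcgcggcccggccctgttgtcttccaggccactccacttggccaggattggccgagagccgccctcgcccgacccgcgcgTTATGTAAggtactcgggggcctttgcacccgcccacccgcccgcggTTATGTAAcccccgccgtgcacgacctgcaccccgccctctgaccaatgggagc
Dbp, upstream: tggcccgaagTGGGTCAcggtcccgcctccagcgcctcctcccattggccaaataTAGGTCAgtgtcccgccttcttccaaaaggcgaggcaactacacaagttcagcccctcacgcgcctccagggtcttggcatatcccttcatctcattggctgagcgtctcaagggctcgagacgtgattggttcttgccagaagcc
Clock, upstream: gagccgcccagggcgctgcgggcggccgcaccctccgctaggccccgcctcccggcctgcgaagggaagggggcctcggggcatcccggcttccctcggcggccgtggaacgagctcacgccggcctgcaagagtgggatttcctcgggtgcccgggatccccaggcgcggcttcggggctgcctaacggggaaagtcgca
Npas2, intron: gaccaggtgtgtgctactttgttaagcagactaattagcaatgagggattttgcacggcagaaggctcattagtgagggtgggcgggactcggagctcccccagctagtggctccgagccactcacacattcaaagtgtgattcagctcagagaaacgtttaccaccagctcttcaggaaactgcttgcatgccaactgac
Clock, intron: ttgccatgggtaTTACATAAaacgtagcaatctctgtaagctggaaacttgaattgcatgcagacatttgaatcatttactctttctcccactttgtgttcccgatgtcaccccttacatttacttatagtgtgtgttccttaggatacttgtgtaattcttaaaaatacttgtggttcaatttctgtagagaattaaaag
Nr1d1, upstream: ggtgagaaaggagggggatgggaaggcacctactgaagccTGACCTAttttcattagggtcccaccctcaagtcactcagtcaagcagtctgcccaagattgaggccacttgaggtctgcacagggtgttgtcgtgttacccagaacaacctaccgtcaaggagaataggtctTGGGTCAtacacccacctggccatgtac

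These windows lie, in the same order, at chr11:69094965-69095165 (plus strand), chr1:91459398-91459598 (minus), chr4:151044770-151044970 (minus), chr7:45704844-45705044 (plus), chr5:76304860-76305060 (minus), chr1:39251752-39251952 (plus), chr5:76274853-76275053 (minus) and chr11:98779479-98779679 (minus). The first 4 lie upstream of the annotated 5' end with no exon in the window. The upstream Clock window overlaps 185 bases of an exon of the annotated gene Gm7467, and the 2 intronic windows hold no exon. In Per1 the E-box began 2 bases after the summit, in Per3 a D-box began at the summit base and a second 47 bases after it, and in Per2 a D-box began 49 bases after it. In Dbp, ROR element cores began 90 and 45 bases before the summit. Among all 114 clock gene regions, the 201 bases around the summit held an E-box in 4 (3.51%, against 3.23% of all 147420 regions), a D-box in 6 (5.26%, against 2.54%), a ROR element core in 8 (7.02%, against 3.65%) and an AP-1 site in 5 (4.39%, against 10.1%). None held a cyclic AMP response element, which 0.505% of all regions held. Thus the AP-1 letters were found in fewer and the D-box and ROR letters in more of these regions than in the whole set, as a description without a test. Among 194 regions of 16 other clock genes, named further below, AP-1 was as scarce (3.09%). There a D-box was in 3.09% and a ROR element core in 4.12%, nearer to the whole set. The RefSeq promoter table (250 bases before to 50 after each start, GRCm38.p6) matched 9 of the genes with 13 starts, and Per2 was not matched. There an E-box lay at position -60 from the Cry1 start and another at position -166 from a Per1 start that is 3732 bases inside the GENCODE gene, and a ROR element core lay 31 bases into 1 of the Arntl transcripts. E-boxes occurred in 7.15% and ROR element cores in 6.45% of all 32851 promoters in that table.

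All 10 genes had a region over the 5' end that was called in all 17 libraries. Such regions can be wide, and the share of all genes that have one was not counted. By a stricter rule, 8 of the 10 genes had a summit within 1 kb of the 5' end in every library, which held for 47.4% of 21728 protein-coding genes. Of the inhibitory limb, Per1 (chr11:69095217-69109960) had the tallest summits, with a lowest, median and highest fold enrichment of 27, 45.5 and 58.5 and a median position of -162 bases from the 5' end. Per2 (chr1:91415982-91459324) stood at 25.0, 36.3 and 45.1, Per3 (chr4:151003652-151044665) at 21.6, 31.3 and 40.5, Cry1 (chr10:85131700-85185064) at 19.6, 26 and 34.7, and Cry2 (chr2:92403646-92434043) at 24.1, 32.3 and 40.0. Of the activators, Arntl (chr7:113207465-113314126) stood at 26.4, 35.5 and 44.1, Clock (chr5:76209868-76304792) at 9.34, 14.4 and 23.4, and Npas2 (chr1:39193731-39363236) at 6.09, 7.70 and 11.5. Thus the summits at Clock and Npas2 were below that at their partner Arntl in every library that had them, and the ranges do not overlap. Dbp (chr7:45705088-45710203), an output gene, stood at 23.5, 40.5 and 55.4, and Nr1d1 (chr11:98767932-98775333), the repressor of Arntl, at 16.7, 27.8 and 37.0. The ranges of the Per, Cry, Arntl, Nr1d1 and Dbp summits overlap one another. Within a library, in the order of the medians, Per1 was above Dbp in 15 of 17 libraries, Dbp above Per2 in 12, Per2 above Arntl in 10, Arntl above Cry2 in 15, Cry2 above Per3 in 12, and Cry1 above Clock in all 17. Per3 was above Nr1d1 in 11 and Nr1d1 above Cry1 in 9 of 16, and Clock above Npas2 in all 15 that had both. Within a library, the Per1 summit lay above 99.1% to 99.9% of all peaks, the Clock summit above 91.4% to 97.1%, and the Npas2 summit above 83.6% to 92.5%. The Npas2 summit lay 285 to 431 bases inside the GENCODE gene and upstream of the RefSeq start, which is 541 bases inside it. It was missing within 1 kb in 2 libraries, diestrus cocaine replicate 2 and proestrus cocaine replicate 4. The Nr1d1 summit was missing in 1, proestrus cocaine replicate 2. In these libraries the value of the region over the 5' end is that of a peak farther away. Between 52 and 96 reads stood at the Npas2 summit and between 234 and 540 at the Per1 summit, so that counting alone gives a standard error of 0.20 to 0.15 and of 0.09 to 0.06 on the log2 scale.

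**Figure D1:**
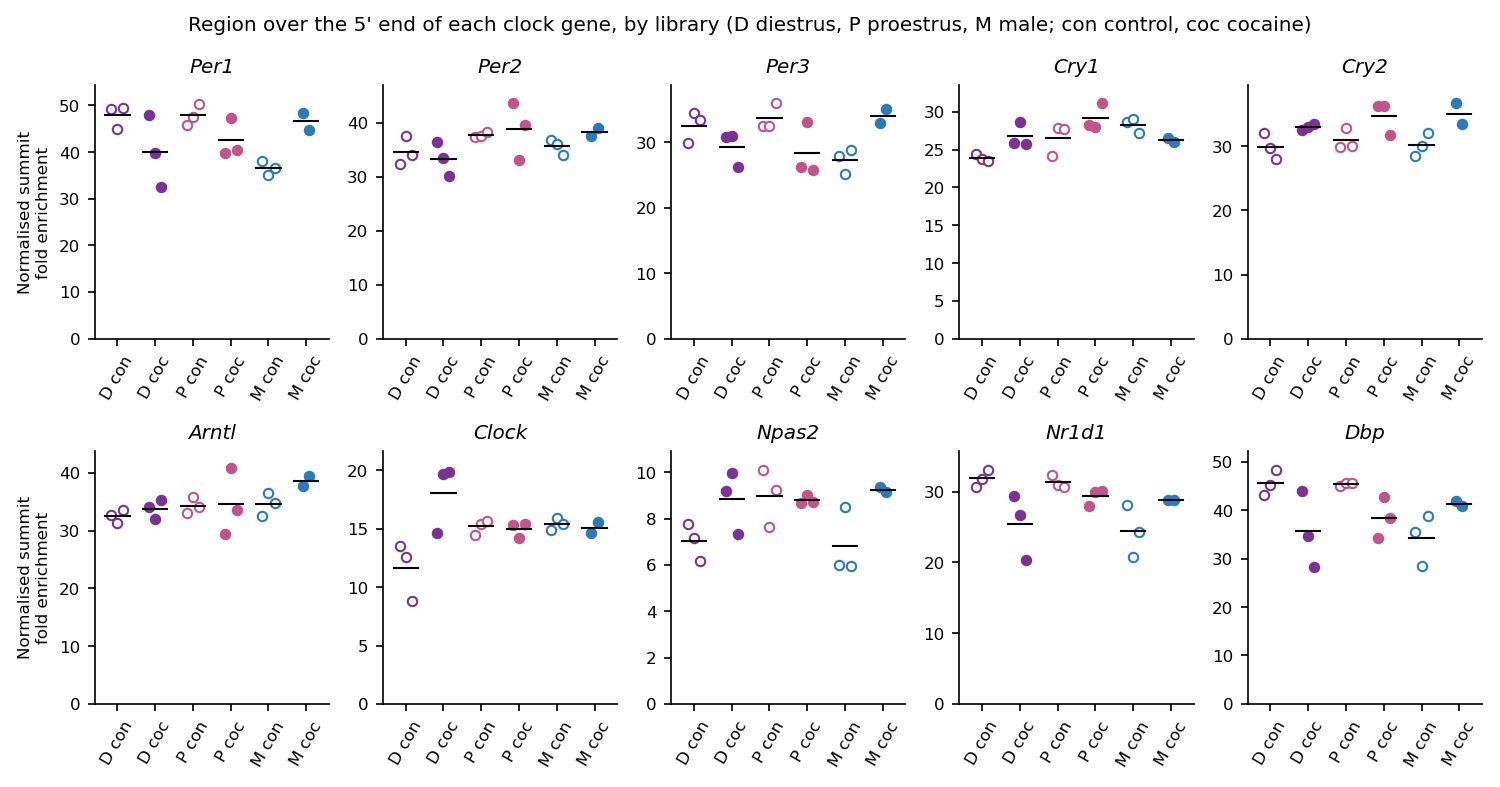
Summit fold enrichment (quantile-normalised, linear axis from 0) of the region over the 5' end of each clock gene; each point is a library, open for control and filled for cocaine, and each line is the group mean. The diestrus cocaine libraries lie at 14.6 to 19.9 at Clock, above the diestrus controls at 8.81 to 13.5, and the male controls lie at 35.0 to 38.1 at Per1, below every other control library. Before normalization the male controls at Per1 stood at 39.4 to 46.0 and the proestrus controls at 36.4 to 49.2, which overlap.

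Beyond the 5' ends, 22 more regions were called in all 17 libraries, so that 32 of 114 (28.1%) were, against 25.0% of all kept regions. The other 82 were called in some libraries only. Regions called everywhere were wide (median 4473 bp) with mean fold enrichments of 4.71 to 44.0, and those called in some libraries were narrow (median 771 bp) with means of 2.17 to 4.60. The widest spanned 34855 bp because neighbouring peaks chain together, so the region over the 5' end of Per1, Cry2, Nr1d1 or Dbp also covers peaks of neighbouring genes, and its value is that of its tallest peak. The strongest summit lay in an intron of the clock gene in 72 of the 114 regions. Npas2 had 45 regions in its window (12 called in all libraries), Arntl 21 (5), Clock 13 (1), Cry1 10 (3), Cry2 7 (2), Per3 6 (1), Per2 5 (2), Nr1d1 4 (3), Per1 2 (2) and Dbp 1 (1). Npas2 had the densest window at 2.37 regions per 10 kb, against 1.66 for Arntl and 1.13 for Clock.

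**Figure D2:**
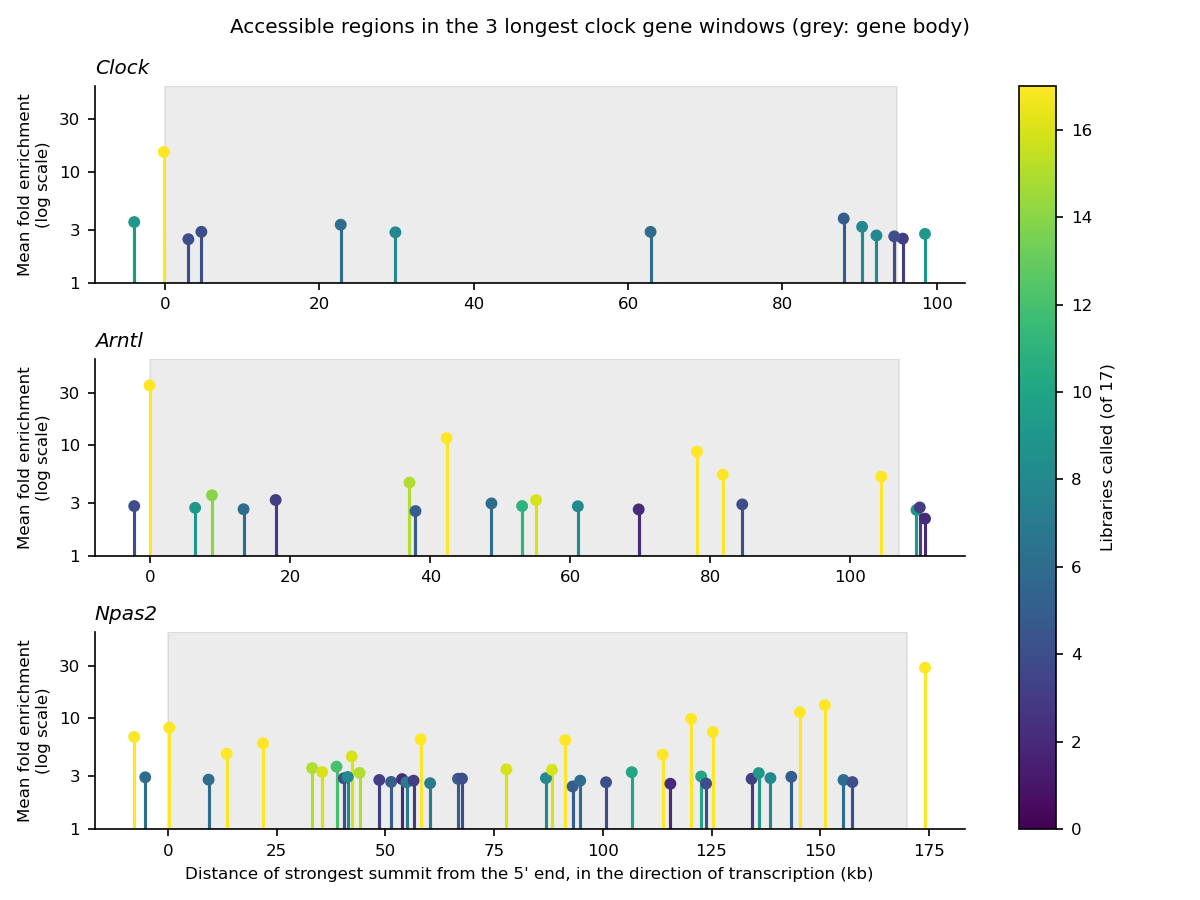
Regions in the windows of Clock, Arntl and Npas2; the x axis gives the distance of the strongest summit from the 5' end in kb, the y axis the mean fold enrichment over the libraries called (log scale), and the color the number of libraries called. Clock had 1 region called in all 17 libraries, Arntl 5 and Npas2 12, and the other regions had means of 4.60 or less.

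Tall regions away from the 5' ends were often those of neighbours. Next to Npas2, a region 174087 bases from the 5' end (chr1:39361566-39380016) had a mean fold enrichment of 28.8 ± 4.17 (SD, n = 17), in a window that also holds Rpl31 and Tbc1d8. Next to Cry2, a region at Mapk8ip1 (chr2:92370452-92405306) had 31.4 ± 5.17 (SD, n = 17). A region past the 3' end of Cry1 (chr10:85127001-85130114), with no gene at its summit, had 25.3 ± 3.43 (SD, n = 17). Of the others, a region 29243 bases from the Per1 5' end (chr11:69116639-69128691) had 16.1 ± 2.64, one at Hes6 next to Per2 (chr1:91412184-91414861) 8.88 ± 1.56 and one upstream of Nr1d1 (chr11:98780763-98791215) 8.70 ± 1.54 (SD, n = 17). The tallest intronic regions, taking 1 per gene, were those of Npas2 at 151063 bases (chr1:39342265-39346608, 13.2 ± 2.41, SD, n = 17), of Arntl at 42335 bases (chr7:113246199-113252246, 11.6 ± 2.52, SD, n = 17), and of Cry1 at 23089 bases (chr10:85160497-85163640, 10.2 ± 1.78, SD, n = 17).

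Summit heights after cocaine were then set against the controls of the same sex or stage at the 32 clock gene regions called in all libraries, with limma over all 36170 autosomal regions of that kind and Benjamini-Hochberg adjustment. In diestrus, 2 of 32 regions rose and 3 fell at adjusted p under 0.05. Across all regions 6.67% rose and 6.31% fell, so that the clock gene shares of 6.25% and 9.38% are near the background. In proestrus no clock gene region passed in either direction (background 2.64% higher and 2.46% lower), and 3 of 32 had an unadjusted limma p under 0.05, where 24.1% of all regions did. In males none passed either (background 3.52% higher and 5.12% lower), and 5 of 32 had an unadjusted p under 0.05, where 24.9% of all regions did. The median log2 difference over the 32 regions was -0.05 in diestrus, -0.02 in proestrus and 0.11 in males, beside medians over all regions of 0.00, -0.00 and 0.01.

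The activator Clock showed the largest of these differences. In diestrus controls the region over its 5' end (chr5:76301938-76306340) had fold enrichments of 12.7, 14 and 9.34, resting on 97, 124 and 89 reads. After cocaine it had 18.2, 23.4 and 16.3, resting on 152, 185 and 141 reads. The diestrus groups did not overlap, either in these values or after normalization (8.81 to 13.5 against 14.6 to 19.9). The log2 difference was 0.64 ± 0.14 (SE, limma adjusted p = 0.00485). In proestrus the normalised values were 14.5, 15.4 and 15.7 in controls and 15.3, 14.2 and 15.4 after cocaine, and in males 14.9, 15.9 and 15.4 and then 14.6 and 15.6. Those groups overlap, with log2 differences of -0.02 ± 0.14 and -0.03 ± 0.16 (SE; limma adjusted p = 0.943 and 0.926). After normalization the diestrus controls therefore lay below every library of the other groups. The diestrus cocaine libraries had the highest group mean (18.1), but at 14.6 to 19.9 they overlapped the proestrus and male groups. The diestrus difference stood at 0.68 with median centring and 0.69 without normalization (limma adjusted p = 0.00544 and 0.0390). The diestrus call was lost without diestrus control replicate 3 (0.46, limma adjusted p = 0.0606) or without diestrus cocaine replicate 2 (0.58, limma adjusted p = 0.0511). The GC content of the Clock summit was 75.1%, where the median of all regions tested was 50.2%, and in diestrus the median log2 difference of regions with a GC content of 60% or more was 0.05.

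Npas2, the paralog of Clock, showed its largest difference inside the gene. The region 58121 bases from its 5' end (chr1:39250657-39252509, intron) had fold enrichments of 4.39, 6.25 and 6.02 in diestrus controls and 9.38, 8.18 and 6.89 after cocaine, with no overlap. The log2 difference was 0.55 ± 0.18 (SE, limma adjusted p = 0.0359), and it was 0.33 ± 0.18 in proestrus and 0.26 ± 0.20 in males (SE; limma adjusted p = 0.242 and 0.439). In proestrus the controls were at 5.81, 4.64 and 6.54 and the cocaine libraries at 8.11, 6.10 and 8.27, which overlap, and in males the controls were at 6.50, 5.10 and 7.35 and the cocaine libraries at 5.47 and 5.23. The diestrus call was lost without any of diestrus control replicates 1, 2 and 3 and diestrus cocaine replicates 2 and 3, with log2 differences of 0.41 to 0.63 and limma adjusted p up to 0.173. Without normalization it was lost too (0.56, limma adjusted p = 0.120), and the male value was -0.22. At the region over the Npas2 5' end, where reads were few, the log2 difference was 0.33 ± 0.16 in diestrus and 0.46 ± 0.18 in males (SE, limma adjusted p = 0.170 and 0.103). Without normalization it was 0.02 in males. In diestrus cocaine replicate 2 the value of this region was that of a peak more than 1 kb from the 5' end. The 5' end of Arntl, the partner of both, differed by 0.05 ± 0.10 in diestrus, by -0.00 ± 0.10 in proestrus and by 0.16 ± 0.11 in males (SE; limma adjusted p = 0.764, 0.994 and 0.406), the last being -0.17 without normalization.

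The 3 regions that fell in diestrus were those of Dbp, Nr1d1 and an Arntl intron. The Dbp region (chr7:45693355-45721502) had fold enrichments of 40.0, 55.4 and 54.5 in diestrus controls and 53.7, 40.5 and 23.5 after cocaine. Normalised, these were 43.2, 45.1 and 48.3 and then 44.0, 34.6 and 28.3, so that 1 cocaine library lay within the control range. The log2 difference was -0.38 ± 0.12 (SE, limma adjusted p = 0.0352). The Nr1d1 region (chr11:98759870-98778371) went from 30.7, 31.8 and 33.1 to 29.4, 26.7 and 20.3 after normalization, with no overlap (-0.34 ± 0.12 SE, limma adjusted p = 0.0478). The Arntl intron at 42335 bases went from 15, 13.3 and 16.2 to 13.2, 11.1 and 9.93 after normalization, also without overlap (-0.38 ± 0.13 SE, limma adjusted p = 0.0486). Before normalization both regions overlapped. Nr1d1 then stood at 28.1 to 37.0 in diestrus controls and 16.7 to 36.1 after cocaine. The Arntl intron stood at 13.9 to 16.6 and 8.15 to 16.5. With median centring or no normalization all 3 kept their sign and none passed (limma adjusted p = 0.0842 to 0.407). In all 3 regions the third diestrus cocaine library was the lowest of that group, and without it the log2 differences were -0.22 at Dbp, -0.19 at Nr1d1 and -0.29 at the Arntl intron (limma adjusted p = 0.315, 0.390 and 0.281). The Dbp call was also lost without diestrus control replicate 2 (-0.38, limma adjusted p = 0.0859), diestrus control replicate 3 (-0.33, 0.145) or diestrus cocaine replicate 2 (-0.37, 0.124). The Nr1d1 call was lost in 13 of the 17 fits that left out 1 library, all but those without diestrus cocaine replicate 1, proestrus cocaine replicate 2 or male control replicate 1 or 2. The Arntl call was lost in 15, all but those without diestrus cocaine replicate 1 or proestrus cocaine replicate 2.

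At Per1 and Per3 the differences had the signs of those at Dbp and Nr1d1, negative in both stages and positive in males, and none passed. Without normalization the male values of these 4 were 0.00, -0.01, -0.06 and -0.07 on the log2 scale, in a table whose median over all regions was then -0.39. At Per1 (chr11:69084693-69115191) the normalised values were 49.2, 45 and 49.4 in diestrus controls and 47.9, 39.7 and 32.5 after cocaine. They were 45.9, 47.5 and 50.3 and then 39.8, 47.3 and 40.5 in proestrus, and 38.1, 35.0 and 36.5 and then 48.4 and 44.7 in males. The male groups did not overlap, and those of either stage did. Before normalization the male groups overlapped too, at 39.4 to 46.0 in controls and 39.1 to 45.5 after cocaine. The log2 differences were -0.27 ± 0.10, -0.18 ± 0.10 and 0.35 ± 0.12 (SE; limma adjusted p = 0.0745, 0.305 and 0.0551). At Per3 (chr4:151039778-151048622) they were -0.15 ± 0.11, -0.25 ± 0.11 and 0.32 ± 0.12 (SE; limma adjusted p = 0.349, 0.146 and 0.0848). With the features restricted to summits within 1 kb of a 5' end, an alternative chosen after seeing the data, Per1 passed in diestrus (-0.30 ± 0.10 SE, limma adjusted p = 0.0297), as did Dbp (-0.40 ± 0.12, 0.0219) and Clock (0.55 ± 0.13, 0.00837). In that set 1139 of 9972 promoters rose and 1088 fell in diestrus. It held 8 of the clock genes, without Nr1d1 and Npas2, whose summits were missing in some libraries. Other normalizations and leaving out libraries were not tried on that set. None of the other inhibitors passed. Per2 differed by -0.05 ± 0.10, 0.03 ± 0.10 and 0.10 ± 0.11, Cry1 by 0.16 ± 0.10, 0.14 ± 0.10 and -0.11 ± 0.11, and Cry2 by 0.14 ± 0.10, 0.17 ± 0.10 and 0.22 ± 0.11 in diestrus, proestrus and males (SE), with limma adjusted p from 0.208 to 0.878. Without normalization their male values were -0.23, -0.43 and -0.12.

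**Figure D3:**
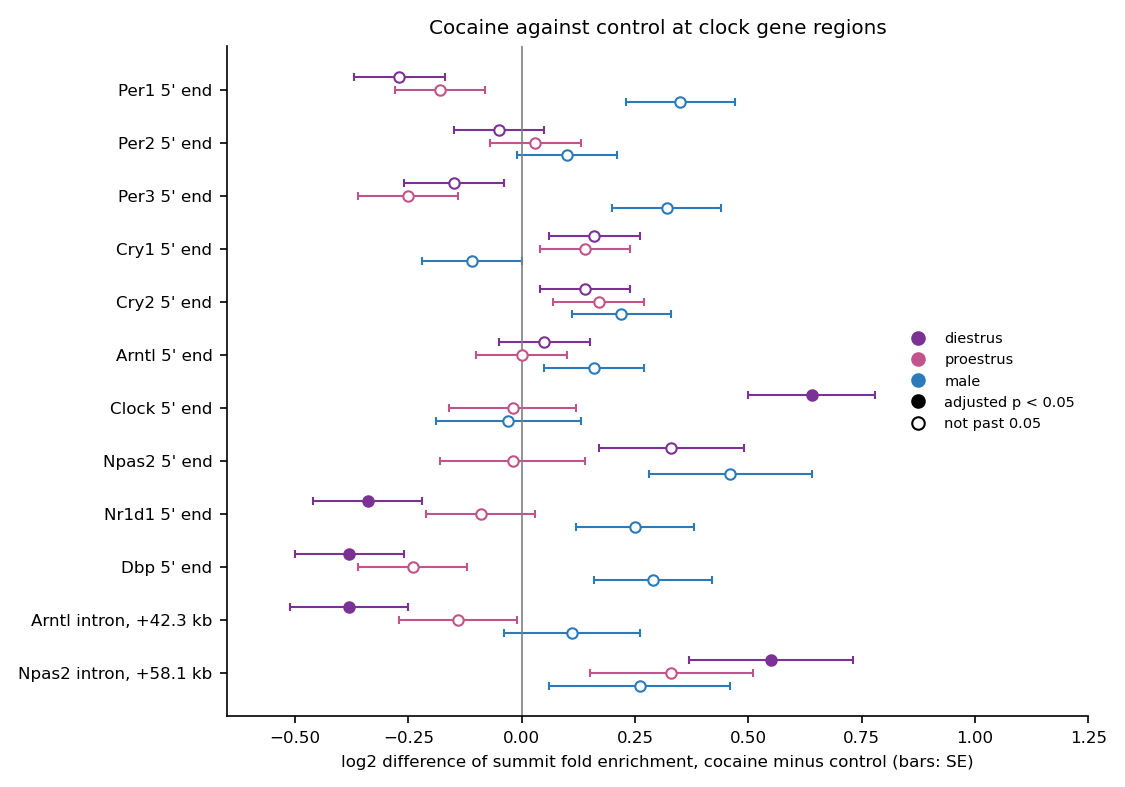
Log2 difference of normalised summit fold enrichment, cocaine minus control, at the region over the 5' end of each clock gene and at 2 intronic regions past the threshold; points are limma estimates by sex or stage, bars are SE, and filled points have an adjusted p under 0.05. Clock lies at 0.64 in diestrus and near 0 in the other groups, and Per1, Per3, Nr1d1 and Dbp lie below 0 in both stages and above 0 in males (0.00 to -0.07 in males without normalization).

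Averaged over diestrus, proestrus and males, 2 of 32 regions rose (6.25%) and none fell (background 7.41% higher and 7.68% lower), namely those over the 5' end of Cry2 (0.18 ± 0.06 SE, limma adjusted p = 0.0376) and in the Npas2 intron at 58121 bases (0.38 ± 0.11, 0.0146). Without normalization the Cry2 differences were 0.19 in diestrus, 0.20 in proestrus and -0.12 in males. Those of the Npas2 intron were then 0.56, 0.40 and -0.22, so neither region rose in males.

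The size of the cocaine effect was compared between males and each stage with interaction terms in the same limma fit. Against diestrus, the effect was higher in males at 4 of 32 clock gene regions (12.5%, background 7.33%) and lower at 1 (3.12%, background 7.69%). The 4 were Per1 (0.63 ± 0.16 SE on the log2 scale, limma adjusted p = 0.010), Dbp (0.66 ± 0.18, 0.0151), Nr1d1 (0.59 ± 0.17, 0.0229) and Per3 (0.48 ± 0.16, 0.0425), and the 1 was Clock (-0.68 ± 0.21, 0.0285). Against proestrus it was higher in males at 2, Per3 (0.58 ± 0.16 SE, limma adjusted p = 0.0214) and Per1 (0.53 ± 0.16, 0.0301), and lower at none (background 5.20% and 5.63%). Dbp differed there by 0.53 ± 0.18 (SE, limma adjusted p = 0.0518). Without normalization Per3 and Per1 stood at 0.18 and 0.16 against proestrus (limma adjusted p = 0.683 and 0.731). When 1 library was left out, Per1 did not pass in 8 of 17 fits (0.47 to 0.61 over all fits, limma adjusted p up to 0.135), those without proestrus control replicate 2 or 3, proestrus cocaine replicate 1 or 4, male control replicate 2 or 3, or either male cocaine library. Per3 did not pass in 6 (0.52 to 0.69, up to 0.106), those without proestrus control replicate 3, proestrus cocaine replicate 1 or 4, male control replicate 2, or either male cocaine library. Between diestrus and proestrus no clock gene region passed (background 0.00553%), and at Clock the difference of 0.67 ± 0.20 had a limma adjusted p of 0.513. Against diestrus, the Per1 call was lost only without male cocaine replicate 1 (0.57, limma adjusted p = 0.0648). That of Dbp was lost in 4 of 17 fits (0.51 to 0.83, limma adjusted p up to 0.0679), without diestrus cocaine replicate 3, male control replicate 2 or either male cocaine library. That of Nr1d1 was lost without the same 4 or diestrus control replicate 3 (0.44 to 0.70, up to 0.0843). That of Clock was lost in 7 (-0.82 to -0.49, up to 0.115), without diestrus control replicate 3, diestrus cocaine replicate 2 or 3, male control replicate 2 or 3, or either male cocaine library. That of Per3 was lost in 10 (0.40 to 0.54, up to 0.165), all fits but those without diestrus control replicate 1, diestrus cocaine replicate 1, proestrus control replicate 1, any proestrus cocaine library or male control replicate 1. The male group after cocaine has 2 libraries, and without replicate 1 none of the 4 higher calls against diestrus passed, and without replicate 2 only Per1 did. Without normalization the 4 had the same sign and none passed, while Clock stood at -1.06 (limma adjusted p = 0.00472), and with median centring Per3 and Clock did not pass (0.61 and -0.56, limma adjusted p = 0.0770 and 0.0831).

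The male controls were themselves lower at several of the same regions, and the cocaine effects share those libraries. Normalised values at Dbp were 35.5, 28.4 and 38.8 in male controls, below all 6 female controls at 43.2 to 48.3, and after cocaine the males were at 41.9 and 40.8. Before normalization the male controls at Dbp stood at 31.9 to 43.5 and the proestrus controls at 35.7 to 44.8, which overlap. Against diestrus controls, 6 of 32 clock gene regions were lower in male controls (18.8%, background 12.2%) and 1 was higher (3.12%, background 12.8%). Against proestrus controls 6 were lower (18.8%, background 7.13%) and none higher (background 7.99%). These regions were named after their values were seen. Lower against both were Per1 (-0.39 ± 0.10 and -0.39 ± 0.10 SE, limma adjusted p = 0.00733 and 0.0113), Dbp (-0.42 ± 0.12 and -0.42 ± 0.12, 0.0101 and 0.0171), Nr1d1 (-0.39 ± 0.12 and -0.37 ± 0.12, 0.0132 and 0.0289) and the Npas2 intron at 151063 bases (-0.49 ± 0.13 and -0.62 ± 0.13, 0.00747 and 0.00176). The Arntl intron at 42335 bases (-0.57 ± 0.13, 0.00228) and an Npas2 intron at 21898 bases (-0.61 ± 0.16, 0.00505) passed against diestrus and not against proestrus, and Per3 (-0.30 ± 0.11, 0.0499, and 0.06 without normalization) and a region at Thra in the Nr1d1 window (chr11:98752557-98758947, -0.53 ± 0.18, 0.0405) against proestrus and not against diestrus. Without normalization none of the lower regions passed. Clock was the 1 region higher in male than in diestrus controls (0.43 ± 0.14 SE, limma adjusted p = 0.0228), and without diestrus control replicate 3 that difference was 0.24 (0.245). The differences at Per1, at the Arntl intron and at the Npas2 intron at 21898 bases against diestrus, and at the Npas2 intron at 151063 bases against proestrus, passed without any of the 17 libraries. Without male control replicate 2, those at Dbp and Nr1d1 were -0.29 and -0.29 against diestrus and -0.29 and -0.26 against proestrus (limma adjusted p = 0.111 to 0.194). Diestrus and proestrus controls differed at no clock gene region (background 0.688%), where 4 of 32 had an unadjusted limma p under 0.05.

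The median summit GC content of the 32 regions was 55.0%, against 50.2% over all regions tested. Over all regions tested, GC content moved with the cocaine difference in proestrus (Spearman correlation -0.27), weakly in males (0.12) and hardly in diestrus (-0.04). In proestrus, regions of 60% GC or more had a median log2 difference of -0.06 and those under 45% one of 0.12. In males these medians were 0.09 and -0.02, and in diestrus 0.05 and 0.06. The summits of Per1, Dbp, Nr1d1 and Per3 have a GC content of 55.2%, 58.7%, 62.7% and 69.2%. The part of GC content in the differences above was not tested.

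Calls were compared next, at all 114 regions, a region being gained where, within a sex or stage, all libraries after cocaine and none of the controls called it, and lost in the opposite case. With 3 libraries a side this has no test that could pass (the smallest exact two-sided p is 0.1), so the counts are read against the share of all regions. In diestrus no clock gene region was gained or lost, where 1.16% and 1.26% of all regions were. In proestrus 1 was gained (0.877%, background 2.45%) and 4 were lost (3.51%, background 1.64%). In males none was gained (background 1.66%) and 10 were lost (8.77%, background 16.8%). Both male cocaine libraries called fewer regions throughout, and the part of that in the male losses was not tested.

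**Figure D4:**
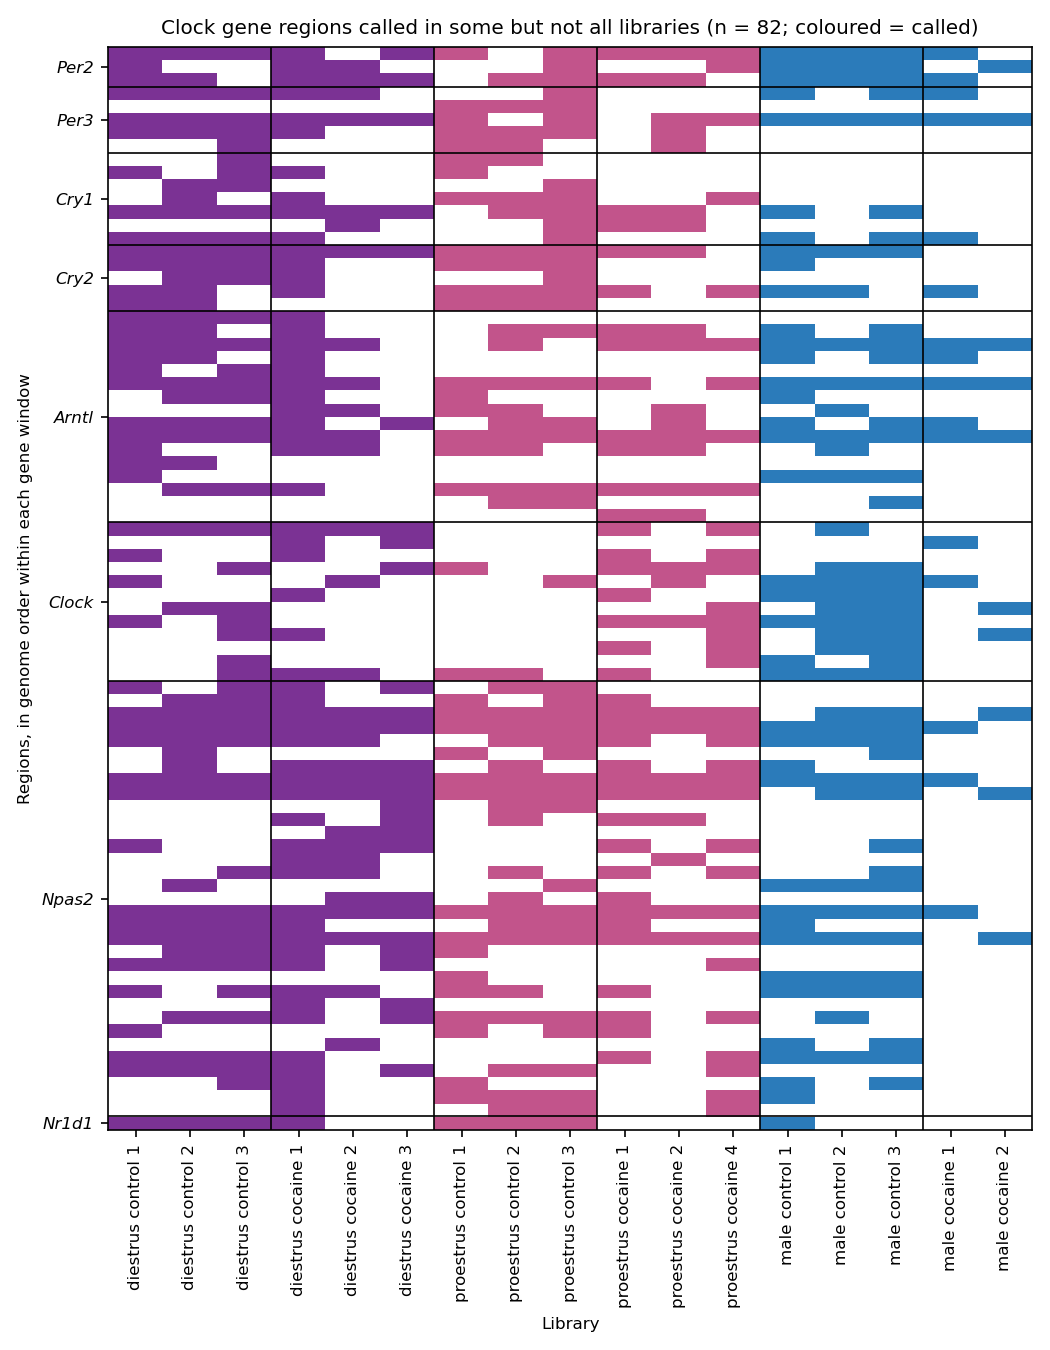
Calls at the 82 clock gene regions called in some but not all libraries; each row is a region in genome order within its gene window, each column a library, and colored cells are called. The male cocaine columns are the emptiest, with 16 and 10 of 82 regions called, and diestrus cocaine replicate 1 is the fullest with 58.

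The 4 regions lost in proestrus lay in the windows of Per3, Cry2 and Nr1d1. A region 5450 bases upstream of Per3 (chr4:151049735-151050290), which lies in Camta1 and Vamp3, was called in the 3 proestrus controls alone, at fold enrichments of 2.53, 2.67 and 2.65. In Cry2, introns at 23290 bases (chr2:92409403-92410942) and 13801 bases (chr2:92419201-92420379) were called in all 3 proestrus controls at 2.11 to 3.32 and in no proestrus cocaine library. A region 4246 bases upstream of Nr1d1 (chr11:98778484-98780498), the last of the sequences above, was called at 3.17, 3.25 and 3.60 in proestrus controls and in no proestrus cocaine library. It was also called in all 3 diestrus controls, in 1 male control and, after cocaine, in 1 diestrus library. These values lie close to the lowest enrichment that could be called, 1.97 to 2.21 depending on the library.

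The 1 region gained in proestrus lay in a Clock intron at 29839 bases (chr5:76274867-76275540) and was lost in males. It was called at 3.10, 2.89 and 2.41 in the proestrus cocaine libraries and in no proestrus control, and at 2.93, 3.03 and 3.18 in the male controls and in neither male cocaine library. Of the 3 diestrus controls 2 called it, and no diestrus cocaine library did. The other male losses were 2 more at Clock, 5 in Npas2 introns, 1 in an Arntl intron and 1 in Cry2. The tallest was an Npas2 intron at 38789 bases (chr1:39231619-39232943), at 4.84, 6.33 and 5.16 in male controls and 2.37 to 3.71 in the 9 female libraries that called it. A region in a Clock exon at 87946 bases (chr5:76216581-76217355) stood at 5.10, 4.27 and 4.17 in male controls and was called in 2 other libraries. The other 7 regions lost in males stood at 2.31 to 5.05 in the male controls. With each library cut to its 75458 strongest peaks, the male losses fell from 10 to 4, the proestrus losses from 4 to 1 and the proestrus gain from 1 to none.

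Over all 17 libraries without regard to sex, 57 clock gene regions called in 4 to 13 libraries were tested with a two-sided Fisher's exact test. None passed after adjustment over the 64304 regions tested, of which none passed. At an unadjusted p under 0.05, 4 were called less often after cocaine (7.02%, background 9.23%) and none more often (background 3.81%). The 4 were the Cry2 intron at 23290 bases and the region upstream of Nr1d1, each called in 7 of 9 control and 1 of 8 cocaine libraries (exact p = 0.0152, adjusted p = 0.278), and the Cry2 intron at 13801 bases and an Npas2 intron at 66715 bases, each in 5 and none (exact p = 0.0294, adjusted p = 0.321).

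Between groups of the same treatment, calls at autosomal regions separated male from diestrus controls at 6 of 114 clock gene regions (background 12.1%), male from proestrus controls at 9 (background 11.9%) and diestrus from proestrus controls at 6 (background 4.78%). After cocaine the counts were 5 (background 6.67%), 3 (background 7.47%) and 1 (background 0.762%). As shares of 114 these are 5.26%, 7.89% and 5.26% in controls and 4.39%, 2.63% and 0.877% after cocaine.

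Calls at the variable clock gene regions were set beside those at gene regions in general. Of the 82 regions called in some libraries only, the 6 female controls called 43.9% to 57.3% and the 3 male controls 40.2% to 50.0%. Among 82238 such regions in the windows of all protein-coding genes, the male controls called 49.5% to 58.7% and the female controls 38.3% to 54.8%. The share of clock gene regions minus that of gene regions in general was 2.30 to 10.8 percentage points in the female controls and -11.8 to -8.69 in the male controls. After cocaine it was 0.722 to 13.9 in diestrus, -6.39 to 0.999 in proestrus, and -1.77 and -2.01 in males. The female and male controls do not overlap in this difference, which was noticed in the data and not tested.

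**Figure D5:**
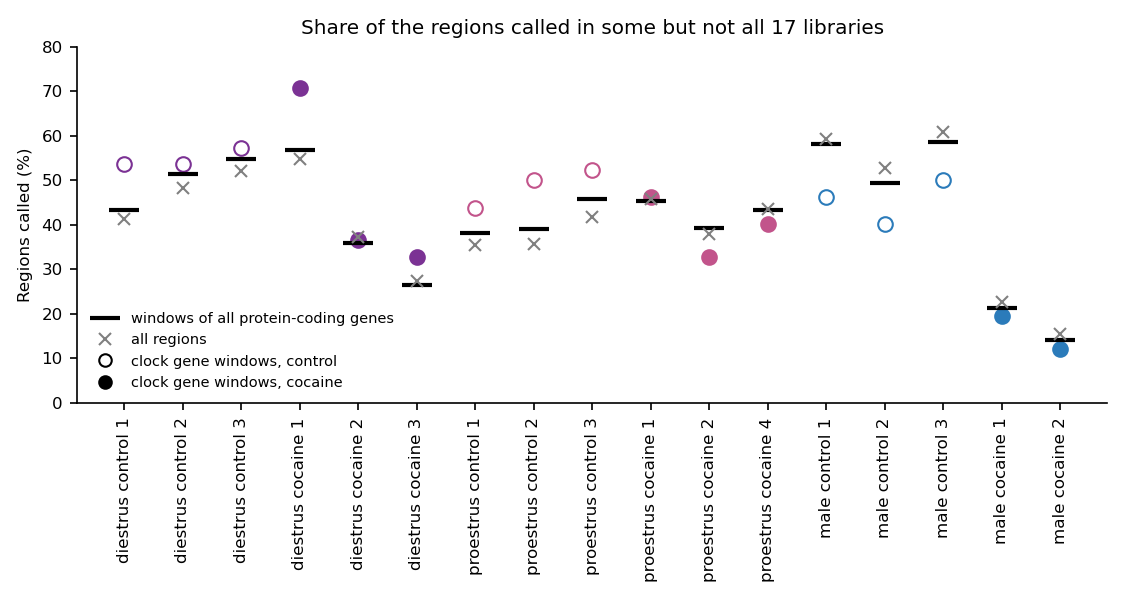
Percent of regions called in each library among regions called in some but not all libraries; circles are the 82 clock gene regions (open control, filled cocaine), bars the 82238 regions in windows of all protein-coding genes, and crosses all such regions. The circles lie above the bars in all 6 female controls and below them in all 3 male controls.

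The genes did not contribute alike. In the Clock window, of 13 regions, the proestrus controls called 3, 2 and 2 and the proestrus cocaine libraries 8, 4 and 9, while the male controls called 6, 10 and 10 and the male cocaine libraries 3 and 3. The groups do not overlap in proestrus, where the cocaine libraries called more, or in males, where they called fewer. In diestrus they were called 5, 3 and 8 times in controls and 7, 4 and 4 times after cocaine, which overlap. In the Cry2 window, of 7 regions, the proestrus controls called 6, 6 and 7 and the cocaine libraries 4, 3 and 3. In the Cry1 window, of 10, the 6 female controls called 6 to 8 and the male controls 5, 3 and 5. In the Npas2 window, of 45, the male cocaine libraries called 15 each and the other 15 libraries 20 to 37. The male cocaine libraries called 42.0% and 36.6% of all kept regions, and the other 15 libraries 45.6% to 70.7%. In proestrus, the controls called 51.6% to 56.2% of all kept regions and the cocaine libraries 53.5% to 59.4%. The diestrus controls called 56.0% to 64.2% and the diestrus cocaine libraries 45.6% to 66.1%. The male controls called 64.6% to 70.7%, more than any female control. These counts were chosen after they were seen and carry no test.

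Of 16 other clock genes (the repressor Nr1d2, the activators Rora and Rorb, Bhlhe40 and Bhlhe41, the D-box factors Tef, Hlf and Nfil3, Ciart, Arntl2, and the kinases, ubiquitin ligases and protease Csnk1d, Csnk1e, Fbxl21, Btrc, Fbxw11 and Usp2), 194 regions were kept and 41 were called in all libraries. In diestrus 5 of the 41 fell, in proestrus 1 fell, and in males 2 fell, and none of the 41 rose in any of these comparisons (background 6.31%, 2.46% and 5.12% lower and 6.67%, 2.64% and 3.52% higher). The region over the 5' end of Fbxl21, a ubiquitin ligase subunit, fell by 0.56 ± 0.15 in diestrus and by 0.53 ± 0.15 in proestrus (SE; limma adjusted p = 0.0137 and 0.0337). A region of Usp2, a deubiquitinase, fell by 0.57 ± 0.14 in diestrus (SE, limma adjusted p = 0.00796). A region of Hlf away from its 5' end, a D-box factor related to DBP, fell by 1.01 ± 0.21 in males (SE, limma adjusted p = 0.00244). The others that fell were a region of Csnk1d and 2 of Rora in diestrus, 1 of which also fell in males. Of the 194 regions, diestrus gained 1 and lost 10, proestrus gained 3 and lost 1, and males gained 1 and lost 41. Over all regions, diestrus gained 1.16% and lost 1.26%, proestrus gained 2.45% and lost 1.64%, and males gained 1.66% and lost 16.8%.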

How the data were processed

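Peaks of 17 ATAC-seq libraries were analysed. Per the study's methods, the authors trimmed adapters, used BWA-MEM for alignment (mm10) and MACS2 for peaks; versions are not given in the sources used here. The deposited files hold, for each library alone, peak positions, the summit's fold enrichment over background (a ratio) and −log10 p and q. Depth is not given, but the deposited ratios of each library were whole multiples of 1 step for 100% of peaks (within 0.02 reads). This gives 1 background pileup for all peaks of a library, of 6.26 to 9.55 reads, and not a local one. Precision therefore falls with the reads at a summit, and intervals from them cover counting error only.

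Peaks on chromosomes 1 to 19 and X that overlapped by 1 bp were merged into 281189 regions, of which the 147420 called in at least 2 libraries of a group were kept. A region's value was that of its tallest peak. Log2 fold enrichments of 36170 autosomal regions called in all libraries were quantile-normalised and fitted with limma 3.58.1 in R 4.3.3 (6 group means, trended empirical Bayes), with p-values adjusted over all regions. This replaces the authors' counts of reads in peaks, which were not used here. Fisher's exact test, statsmodels 0.14.6 for adjustment, SciPy 1.17.1 and pysam 0.24.0 were run in Python 3.11.15. The tests were checked on simulated data.

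Groups followed the sample titles. In 1 diestrus cocaine library the stage label was blank and the title was used. Libraries are pools of separate animals. The 10 genes, the 16 other clock genes, the markers and the tests were chosen with earlier results of these data known, and some genes of the second list are not reported here. Regions named are those over the 5' ends, those gained, lost or past the limma threshold in a cocaine comparison and, for each gene, the tallest of the rest. Alternatives tried were other peak thresholds, numbers, merging rules and windows, other normalizations, other region sets, an exact permutation test, a replicate block and leaving out each library. Within a sex or stage, control and cocaine libraries with the same title number showed weak correlations of their deviations from the group mean (-0.229 to 0.149). Libraries with the same number in different sexes or stages were not compared. The number was not used as a block in the main fit.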

Additional observations from a re-analysis of the deposited data

Results flagged for a closer look

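The groups hold 2 or 3 libraries, and single libraries were not tested for their distance from the group. The results below are those in which the cocaine effect differed between males and females.

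At Per1 the log2 difference after cocaine was higher in males than in diestrus by 0.63 and than in proestrus by 0.53, and at Per3 by 0.48 and 0.58 (limma interaction terms). At Nr1d1 and Dbp it was higher in males than in diestrus by 0.59 and 0.66. At Clock it differed from diestrus in the opposite direction, by -0.68. Nr1d1, Dbp and Clock did not pass against proestrus. None of the terms higher in males passed without normalization. The Clock intron at 29839 bases, called in 8 libraries, was gained in proestrus and lost in males, a difference that was not tested.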

How the results depend on the processing

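Counts below are of clock gene regions, main value first. With peaks limited to a −log10 q of 5 or more, the proestrus gain went from 1 to 0 and losses from 4 to 1, regions called in male and not diestrus controls from 2 to 4 and the reverse from 4 to 0, those in proestrus and not male controls from 5 to 2, those that separated diestrus from proestrus from 4 to 1 and 2 to 1 in controls and from 0 to 1 and 1 to 0 after cocaine, and the effects lower in males than in diestrus from 1 to 2. With the same number of strongest peaks in each library, proestrus went from 1 to 0 and 4 to 1, male losses from 10 to 4, diestrus and not male controls from 4 to 1, proestrus and not male controls from 5 to 1, diestrus against proestrus controls from 4 to 0 and 2 to 0, and, after cocaine, diestrus and not male from 5 to 0, proestrus and not male from 3 to 0, and diestrus against proestrus from 0 to 1 and 1 to 0. With peaks joined at 100 bp of overlap, proestrus losses went from 4 to 2 and proestrus and not diestrus controls from 2 to 1. Over gene bodies alone, which hold fewer regions (90), proestrus losses went from 4 to 2, diestrus and not male controls from 4 to 2, proestrus and not male from 5 to 1, diestrus against proestrus from 4 to 2 and 2 to 1, and diestrus and not male after cocaine from 5 to 3.

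With median centring, diestrus decreases went from 3 to 0, male increases from 0 to 1, effects lower in males than in diestrus from 1 to 0 and regions lower in male than proestrus controls from 6 to 3. Without normalization, diestrus went from 2 to 1 higher and 3 to 0 lower, male decreases from 0 to 3, the effect in males against diestrus from 4 to 0 higher and 1 to 3 lower and against proestrus from 2 to 0 and 0 to 2, male against diestrus controls from 6 to 0 lower, and male against proestrus controls from 0 to 3 higher and 6 to 0 lower. Per3 then reversed between male and proestrus controls (-0.30 to 0.06). Over regions called in at least 2 libraries of every group, diestrus decreases went from 3 to 1. The exact permutation test in place of limma took the pooled counts from 2 to 0 higher and 0 to 2 lower, where 12.7% of all regions passed and 29 of the 32 differences were negative. Percentile ranks move with the number of peaks in a library, which was lowest in the male cocaine libraries, so no direction is read from that test. With the title number as a replicate block, diestrus decreases went from 3 to 1 and effects higher in males than in proestrus from 2 to 0, and no other count moved by over 1.5 times. Whether the title number marks a batch shared across stages and sexes was not tested.

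Leaving out each library in turn gave 0 to 3 gains and 0 to 7 losses in diestrus, 1 to 6 and 4 to 7 in proestrus, and 0 to 1 and 10 to 16 in males. In controls it gave 2 to 5 regions called in males and not diestrus, 4 to 9 the reverse, 4 to 7 in males and not proestrus, 5 to 9 the reverse, and 2 to 5 in proestrus and not diestrus. After cocaine these were 0 to 1, 5 to 12, 0 to 4 and 3 to 12 in the same order, 0 to 4 in diestrus and not proestrus, and 1 to 2 the reverse. By limma it gave 0 to 3 regions higher and 0 to 5 lower in diestrus, 0 to 2 lower in proestrus, 0 to 2 higher in males, 0 to 5 higher and 0 to 1 lower effects in males against diestrus, 0 to 3 higher against proestrus, 0 to 1 higher in diestrus against proestrus, and in male controls 0 to 2 higher and 3 to 8 lower than diestrus and 2 to 6 lower than proestrus.

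The cause of these changes was not tested. Regions near the lowest callable enrichment limit the counts of calls, and 2 male cocaine libraries limit every male comparison.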
